A study of Mus musculus with 17 samples.

Results

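The expression of 42 genes of cell proliferation was followed in whole kidneys of 17 mice. The genes are a named set of S-phase and mitosis genes, taken by symbol, and all 42 were found among the 22558 genes with usable values. RNA was sequenced from 5 wild-type C57BL/6 mice (Ctrl), 6 db/db mice without the drug (Case) and 6 db/db mice that received dapagliflozin (Dapa). Dapagliflozin is an inhibitor of the renal glucose transporter SGLT2. Treatment by oral gavage at a daily dose of 1 mg/kg began when the male mice were 8 weeks old and lasted 6 weeks. Ctrl and Case mice were given an equal volume of saline. The db/db mice (BKS.Cg-Dock7m +/+ Leprdb/J) carry a mutation of the leptin receptor gene in every cell. Since their strain is BKS, diabetes, genotype and strain cannot be told apart in any comparison with Ctrl. Dapa and Case share genotype and strain. Each library is taken as 1 mouse, as the titles number them, so that p-values measure the spread between these libraries.

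A cell that divides passes from G1, in which D cyclins and the transcription factor E2f1 act, into S phase, in which the Mcm helicase opens the DNA, Pcna clamps the polymerase and ribonucleotide reductase supplies nucleotides. Cyclin A, cyclin B and Cdk1 then drive entry into mitosis, and kinesins, kinetochore and checkpoint proteins such as Kif11, Cenpf and Bub1b separate the chromosomes. In the adult kidney few tubule cells divide, and division of tubule cells is best known after injury, while infiltrating immune cells can divide too. In whole-kidney RNA, fewer cells of a kind and less RNA per cell cannot be told apart, nor can the cell type that holds a transcript.

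The libraries held 13039535 to 17779635 counts, of which mitochondrial genes took 17.9% to 20.4% in Ctrl, 19.8% to 27.3% in Case and 19.7% to 27.6% in Dapa, and the part of this in the group differences was not tested. The kidney markers were present, with Slc34a1 of the proximal tubule at 1388 ± 61.8 FPKM (SD, n = 5), Umod of the loop of Henle at 698 ± 313 and Aqp2 of the collecting duct at 34.6 ± 7.92 in Ctrl. Case replicate 3 had the highest summed marker level of macrophages among all mice (193.7 FPKM). In 7 libraries (Ctrl replicates 1, 3 and 4, Case replicate 1 and Dapa replicates 10, 11 and 12) counts and FPKM of the 3 left-out genes did not match, and these were treated as a possible batch. Differences were tested on the counts of all genes with edgeR's quasi-likelihood test, with q the Benjamini-Hochberg adjusted p-value and log2 fold changes on its TMM scale. FPKM is a level scaled by gene length and library total. Between Case and Ctrl the FPKM ratios of all genes ran 0.08 higher than the TMM-scaled log2 fold changes, and between Dapa and Ctrl 0.11 higher, so that FPKM and the fold changes differ by this amount in scale.

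Promoters of genes that act in mitosis are known for the cell cycle homology region (CHR) and CCAAT boxes, and promoters of genes that act in replication for E2F sites, and examples are shown because both sets held genes that differed between the groups. RefSeq windows (GRCm38.p6) were matched for 32 of the 42 genes, but not for Aurkb, Ccna2, Ccnd1, Ccne2, Foxm1, Gins2, Kif20a, Mcm4, Stmn1 and Tpx2. The 250 bases before the start site were searched on both strands. The letters TTTGAA and also TTCGAA were counted as a CHR, a site of repression in resting cells. The letters TTCCCGC as well as TTGGCGC and further TTCGCGC were counted as E2F. The last motif was CCAAT, whose reverse can share letters with one of the E2F forms. Of 17 mitosis genes with a window, 8 (47.1%) held a CHR, 15 (88.2%) a CCAAT and 3 (17.6%) an E2F motif. Of 12 replication and nucleotide genes, 2 (16.7%) held a CHR, 9 (75.0%) a CCAAT and 5 (41.7%) an E2F motif. Among the windows of all 14038 genes these shares were 13.2%, 35.2% and 10.5%. The 120 bases before the start site are given for 3 mitosis genes that were lower in Dapa than in Ctrl, with any of these motifs, in either orientation, in capitals. Cenpf, which was also lower, held CCAAT but no CHR or E2F motif in its 250 bases and is not shown. Mki67 held a pair of CHR letters beside an E2F motif, Top2a held 3 CCAAT and 2 CHR motifs, and Ccnb2 held 3 CCAAT motifs. A CHR of Ccnb2 lay farther from the start.
Mki67 (chr7:135716380-135716499, minus strand): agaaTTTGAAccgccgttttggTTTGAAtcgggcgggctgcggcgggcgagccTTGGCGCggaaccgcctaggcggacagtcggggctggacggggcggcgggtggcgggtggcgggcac
Top2a (chr11:99024190-99024309, minus strand): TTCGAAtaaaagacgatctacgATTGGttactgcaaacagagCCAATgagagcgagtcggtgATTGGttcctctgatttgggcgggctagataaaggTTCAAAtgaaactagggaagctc
Ccnb2 (chr9:70421555-70421674, minus strand): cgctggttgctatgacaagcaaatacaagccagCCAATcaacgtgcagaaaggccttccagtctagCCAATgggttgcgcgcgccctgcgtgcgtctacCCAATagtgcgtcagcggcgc
The same stretch is given for 3 replication and nucleotide genes that were higher in db/db mice, of which Rrm1 and Uhrf1 held an E2F motif and CCAAT, and Mcm5 CCAAT only, with its E2F motif farther from the start. Mcm2, higher in Dapa than in Ctrl, held CHR and CCAAT but no E2F motif in its 250 bases and is not shown.
Rrm1 (chr7:102441575-102441694, plus strand): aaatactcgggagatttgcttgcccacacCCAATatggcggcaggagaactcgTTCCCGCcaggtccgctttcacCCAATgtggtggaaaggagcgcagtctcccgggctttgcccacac
Uhrf1 (chr17:56303217-56303336, plus strand): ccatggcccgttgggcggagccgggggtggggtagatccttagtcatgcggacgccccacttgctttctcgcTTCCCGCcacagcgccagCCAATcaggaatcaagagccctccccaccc
Mcm5 (chr8:75109389-75109508, plus strand): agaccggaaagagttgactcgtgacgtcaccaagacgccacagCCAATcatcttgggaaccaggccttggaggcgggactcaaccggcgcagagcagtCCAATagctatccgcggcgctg
A motif match describes these letters and not a site that is bound.

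Most of the 42 genes were expressed at low levels. The highest by mean FPKM over all mice was Ccnd1 (cyclin D1), with 89.5 and at least 3584 counts in every mouse, followed by Pcna with 7.60, and the lowest was Ccnb1 (cyclin B1) with 0.0476 and at most 17 counts. Means under 1 FPKM were found for 28 of the genes, among them all 22 that act in mitosis. Levels of different genes depend on the length used for each, which was 0.363 (Rrm1) to 2.23 (Ccne2) times the exonic length of the annotation. The variance of scaled counts among mice of a group exceeded their mean in most genes (median ratio 4.93, and 5.41 among the mitosis genes), so that the spread between mice was larger than counting error. Mki67, the proliferation marker Ki-67, had 64, 92, 120, 115 and 86 counts in the Ctrl mice and 19 to 114 in the Case mice.

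**Figure D1:**
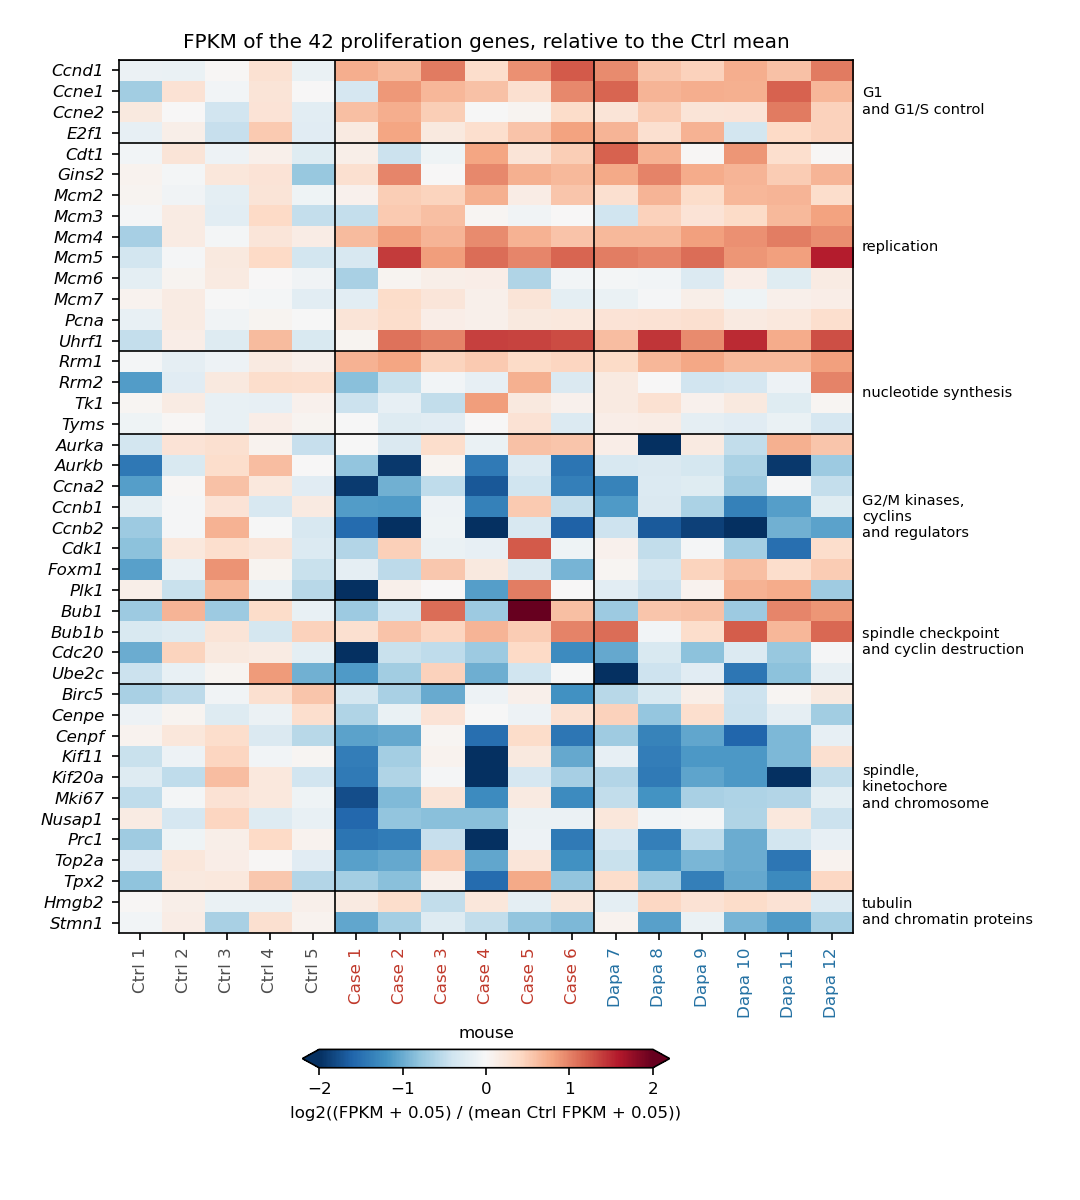
Level of each of the 42 genes (rows, by role) in each of the 17 mice (columns, by group), as log2 of (FPKM + 0.05) over (mean Ctrl FPKM + 0.05), with colours ending at 2 units either way. The Mcm4, Mcm5, Uhrf1, Rrm1 and Ccnd1 rows are red in most Case and Dapa mice, and many rows of mitosis genes are blue in them, apart from Case replicates 3 and 5.

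Between Case and Ctrl, which asks what the diabetic kidney changes, Ccnd1, Rrm1 and 3 of 10 replication genes (Mcm4, Mcm5 and Uhrf1) were higher in Case, and cyclin A2 and stathmin were lower. Of the 42 genes, 38 passed the filter on low counts and 7 of these (18.4%) had a q under 0.05, while 13.0% of all 14582 genes tested did. Of the 7, 5 were higher in Case (13.2% of the 38, against 6.09% of all genes) and 2 were lower (5.26%, against 6.91%). A log2 fold change above 0 was found in 18 of the 38 (47.4%, against 54.3% of all genes). With the additional threshold of a 2-fold difference between mean FPKM, 2 were DEGs, Uhrf1 and Ccna2 (5.26%, against 3.79% of all genes). The median log2 fold change over the 38 genes was -0.12, beside 0.03 over all genes. By role it was -0.71 over the 19 mitosis genes tested, 16 of them below 0. It was 0.16 over the 14 replication and nucleotide genes, 11 of them above 0. Among the mitosis genes, Aurkb, Ccnb2, Cenpf and Tpx2 passed the filter here through Ctrl, where they were high, and not between Dapa and Case.

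Ccnd1 (mm10 chr7:144929931-144939869, minus strand), which links growth signals to the exit from G1, had 54.2, 53.6, 60.2, 73.1 and 54.0 FPKM in the Ctrl mice and 75.4 to 138 (median 104) in the Case mice. No Case mouse overlapped with the Ctrl mice, and the log2 fold change was 0.77 (SE 0.15, q = 0.0078, edgeR). Its partner in the exit from G1, E2f1, had 0.404 ± 0.127 FPKM (SD, n = 5) in Ctrl versus 0.594 ± 0.127 (SD, n = 6) in Case, which did not pass (log2 fold change 0.49, SE 0.25, q = 0.22, edgeR). Ccne2 was in the same direction (0.40, SE 0.25, q = 0.31, edgeR), and Ccne1 had too few counts to be tested (2 to 14 per mouse). Exons of LTO1 on the opposite strand cover 23.4% of those of Ccnd1, and whether counting used the strand is not stated.

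Mcm4 (chr16:15623897-15637400, minus strand), a subunit of the helicase that opens the DNA for replication, had 1.17, 2.09, 1.81, 2.21 and 2.07 FPKM in the Ctrl mice and 2.81 to 3.65 (median 3.02) in the Case mice. The groups did not overlap, and the log2 fold change was 0.67 (SE 0.15, q = 0.0139, edgeR). Rrm1 (chr7:102441695-102469771, plus strand), the large subunit of ribonucleotide reductase, had 3.19, 2.90, 3.06, 3.73 and 3.52 FPKM in Ctrl and 4.27 to 5.71 (median 4.62) in Case, again without overlap (0.48, SE 0.11, q = 0.0131, edgeR). Uhrf1 (chr17:56303321-56323486, plus strand), which brings the maintenance DNA methyltransferase to newly copied DNA and whose promoter is given above, had 0.186, 0.310, 0.225, 0.457 and 0.215 FPKM in Ctrl and 0.291 to 0.795 (median 0.707) in Case. Only Case replicate 1 lay within the Ctrl range, and the log2 fold change was 1.15 (SE 0.31, q = 0.0289, edgeR). Of the 50-base stretches of Uhrf1, 15.4% also occur in other transcripts, most of them in Gm5648, so reads of both could be mixed.

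Mcm5 (chr8:75109528-75128439, plus strand), another helicase subunit, had 0.576, 0.748, 0.870, 1.02 and 0.575 FPKM in Ctrl and 0.596 to 2.08 (median 1.62) in Case, where again only Case replicate 1 overlapped with Ctrl. Its log2 fold change of 0.92 (SE 0.28) stood at q = 0.0496 (edgeR) and lost its call in 14 of 21 other settings, as Uhrf1 did in 8. Not all genes of replication were higher. Mcm6 (-0.22, SE 0.16), Mcm7 (0.03, SE 0.12), Mcm3 (0.08, SE 0.23) and Pcna (0.14, SE 0.09) had q values of 0.33 to 0.90 (edgeR), although the helicase holds all of the Mcm proteins. Rrm2, the small subunit of ribonucleotide reductase, which is present mainly in S phase, had 1.21 ± 0.438 FPKM (SD, n = 5) in Ctrl and 1.13 ± 0.473 (SD, n = 6) in Case (-0.17, SE 0.31, q = 0.76, edgeR), and Tyms and Tk1 of thymidylate synthesis had -0.14 (SE 0.12) and 0.01 (SE 0.24). Mcm2 (0.37, SE 0.15, q = 0.12) and Gins2 (0.62, SE 0.27, q = 0.14) passed only an unadjusted p of 0.05 (edgeR). Together with the 7 that passed the q, 13 of the 38 genes had an unadjusted p under 0.05 (34.2%, against 28.7% of all genes), 8 of them higher (21.1%, against 14.6%) and 5 lower (13.2%, against 14.1%). Most of the exonic length of Gins2 (67.3%) is overlapped by Gse1 on the opposite strand.

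Of the mitosis genes, only Ccna2 (cyclin A2, which acts in S phase and at the entry into mitosis) had a q under 0.05. It was lower in Case. The gene lies at chr3:36564865-36572150 on the minus strand, and Exosc9 on the opposite strand overlaps 12.5% of its exons. It had 0.236, 0.573, 0.873, 0.660 and 0.475 FPKM in Ctrl and 0.112 to 0.414 (median 0.226) in Case, with a log2 fold change of -1.25 (SE 0.38, q = 0.0460, edgeR). The groups overlapped at Ctrl replicate 1, and the call was lost in 13 of 21 other settings. Of the 10 spindle, kinetochore and chromosome genes 0 passed the q, Cenpf and Tpx2 passed the filter in comparisons with Ctrl but not between Dapa and Case, and Prc1 (-1.63, SE 0.62, q = 0.10) and Nusap1 (-0.74, SE 0.29, q = 0.11) reached only an unadjusted p of 0.05 (edgeR). Mki67 had 0.575 ± 0.126 FPKM (SD, n = 5) in Ctrl versus 0.366 ± 0.244 (SD, n = 6) in Case (-0.74, SE 0.37, q = 0.21, edgeR). Top2a, the topoisomerase that untangles chromosomes, had 0.404 ± 0.0654 versus 0.291 ± 0.201 FPKM (-0.57, SE 0.37, q = 0.33, edgeR). Ccnb2, which like Cenpf and Tpx2 did not pass the filter between Dapa and Case, had -1.38 (SE 0.61, q = 0.15), and Cdk1, the kinase both cyclins B activate, had 0.22 (SE 0.38, q = 0.75, edgeR). Foxm1, the factor that switches on G2/M genes, had -0.25 (SE 0.42, q = 0.74, edgeR). The checkpoint kinase Bub1b stood on the other side, at 0.61 (SE 0.26, q = 0.14, edgeR). Ccnb1, Bub1 and Ube2c had too few counts to be tested, with 8, 10, 14, 7 and 12 counts of Ccnb1 in Ctrl and 0 to 17 in Case. Pseudogenes share 23.4% of its 50-base stretches.

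Stmn1 (chr4:134468320-134473843, plus strand, stathmin, which takes tubulin out of microtubules and is also made by cells that do not divide) had 5.60, 6.47, 3.69, 7.27 and 6.13 FPKM in Ctrl and 2.80 to 4.88 (median 3.48) in Case. Case replicates 3 and 4 lay above Ctrl replicate 3 and no other Ctrl mouse, and the log2 fold change was -0.76 (SE 0.17, q = 0.0126, edgeR). Of its 50-base stretches 18.9% also occur in other transcripts, most of them in Gm11223. Hmgb2, a chromatin protein, was at 0.00 (SE 0.16). Of the 7 calls, 3 had groups without overlap, Ccnd1, Mcm4 and Rrm1, which is 7.89% of the 38 genes against 8.43% of all genes. All 3 were higher in Case (4.97% of all genes), and 0 genes lay lower in every Case mouse (3.46% of all genes). On the TMM scale the same 3 genes did not overlap, and the shares of all genes were 3.07% higher and 5.37% lower. After fitting the possible batch of 7 libraries 4 calls remained, Ccnd1, Mcm4, Rrm1 and Stmn1, and these 4 were also called with each of the mice left out.

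**Figure D2:**
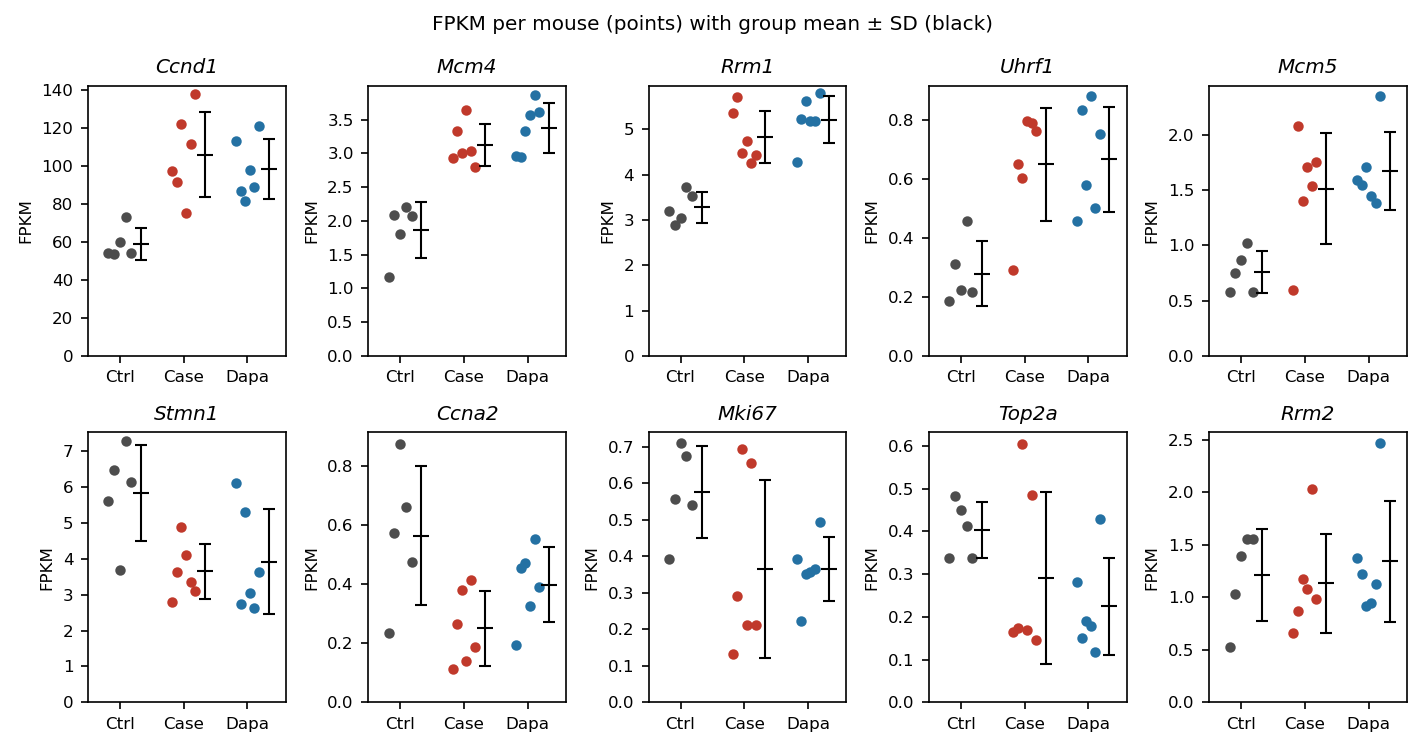
FPKM of 10 proliferation genes in each mouse (points, Ctrl grey, Case red, Dapa blue), with the mean and SD of each group in black. Ccnd1, Mcm4 and Rrm1 of the Case and Dapa mice lie above all Ctrl mice, while Mki67 and Top2a of Case fall into 4 low mice and 2, replicates 3 and 5, at or above most Ctrl mice.

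Mouse by mouse, the mitosis genes spread widely within the groups. The 22 mitosis genes summed to 5.44, 7.97, 10.7, 8.81 and 7.16 FPKM in the Ctrl mice. In the Case mice they summed to 2.98, 4.73, 7.63, 3.70, 9.49 and 4.91 FPKM, and thus 4 of the 6 lay below every Ctrl mouse and replicates 3 and 5 within the Ctrl range. In the Dapa mice the sums were 4.77 to 7.54 FPKM (median 5.86). The 14 replication and nucleotide genes summed to 22.3 to 27.4 FPKM in Ctrl. Their range was 27.3 to 33.7 FPKM in Case, around a median of 30.6, and 31.8 to 35.8 FPKM in Dapa, around a median of 32.7, and Case replicate 1 was the only Case mouse within the Ctrl range. Ctrl replicate 1 and Case replicate 1 were lowest of their group in both sums, and Dapa replicate 12 was highest in both. On the TMM scale the replication and nucleotide sums were 122 to 135 CPM in Ctrl, 126 to 158 in Case and 140 to 160 in Dapa, and Case replicate 3 then also lay within the Ctrl range. The mitosis sums were 34.5 to 61.4 CPM in Ctrl, 16.8 to 51.1 in Case and 24.1 to 41.3 in Dapa on that scale, where 4 of 6 Dapa mice lay below every Ctrl mouse, as against 2 of 6 in FPKM. The summed counts of the mitosis genes, as a percentage of the separate sum of the replication and nucleotide genes, were 28.3% to 48.7% in Ctrl, 12.8% to 35.6% in Case and 15.8% to 25.9% in Dapa, a ratio that does not depend on the scaling. No Dapa mouse reached the lowest Ctrl mouse in it. These sums were not tested, since the genes were chosen with results known.

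Case replicate 5 was among the 2 highest Case mice in 16 of the 19 mitosis genes tested, and Case replicate 3 in 12. Mki67 had 0.694 and 0.655 FPKM in replicates 3 and 5, and 0.133 to 0.290 in the other 4 Case mice. Cdk1 was 0.772 FPKM in replicate 5 and 0.182 to 0.437 in the others, and Bub1 was 0.292 FPKM there, with 24 counts, as against 0 to 11 counts elsewhere. Rrm2, an S-phase gene, was also highest in replicate 5 (2.03 FPKM). Markers of macrophages (193.7 FPKM), neutrophils and T and NK cells were highest in Case replicate 3 too, but in replicate 5 the macrophage markers summed to 29.6 FPKM, within the Ctrl range of 26.3 to 45.4, and the neutrophil markers to 2.74 FPKM, above the Ctrl range of 0.137 to 2.59. T and NK cell markers summed to 1.62 FPKM in Case replicate 5, below the Ctrl range of 1.66 to 2.53. The part of immune cells in these values was not tested, beyond these sums. In Ctrl, replicate 3 was among the 2 highest mice in 17 of the 19 genes and had summed adipocyte markers of 19.1 FPKM, beside a Ctrl median of 0.138, and in Dapa replicate 12 was among the 2 highest in 13. Within groups, Pearson's r over the 17 mice, with group means removed, had a median of 0.33 over the pairs of mitosis genes (89.5% of pairs positive), 0.15 over the pairs of replication and nucleotide genes (72.5%), 0.00 between the sets and -0.00 over pairs of all genes tested. The points share library and depth, and these are descriptions.

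**Figure D3:**
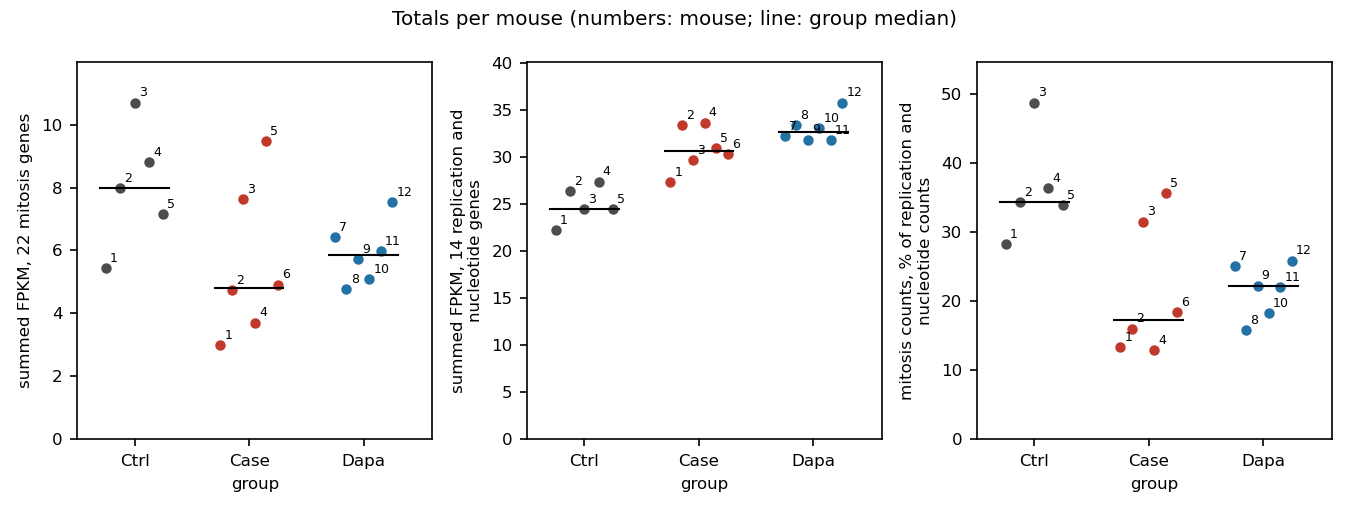
Sums over genes in each mouse (points with the mouse number, Ctrl grey, Case red, Dapa blue, group medians as lines): summed FPKM of the 22 mitosis genes, summed FPKM of the 14 replication and nucleotide genes, and counts of the former as percent of the latter. Mitosis sums of Case replicates 1, 2, 4 and 6 (2.98 to 4.91) lie below those of all Ctrl mice (5.44 to 10.7), while the replication sums of Dapa (31.8 to 35.8) all lie above those of Ctrl (22.3 to 27.4).

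Between Dapa and Case, which asks what dapagliflozin changes in the diabetic kidney, no proliferation gene passed the test. Of the 42 genes 34 were tested, and 0 had a q under 0.05 by edgeR, DESeq2 or limma. By edgeR 0 of the 34 had an unadjusted p under 0.05, as against 12.9% of all 14573 genes tested (6.24% higher and 6.66% lower), of which 0% passed the q. The FPKM of the groups overlapped in all 34, while 0.480% of all genes did not overlap (0.316% higher, 0.165% lower). The median log2 fold change was 0.07, beside -0.01 over all genes, and 23 of the 34 (67.6%) were above 0, as against 48.8% of all genes. The limits of these data are seen in the standard errors. Ccnd1 had 106 ± 22.4 FPKM (SD, n = 6) in Case versus 98.4 ± 15.8 (SD, n = 6) in Dapa (log2 fold change -0.14, SE 0.15), and Mcm4 had 0.09 (SE 0.11), Rrm1 0.09 (SE 0.11), Uhrf1 0.01 (SE 0.26) and Pcna 0.04 (SE 0.08). For Mki67 (-0.01, SE 0.37), Top2a (-0.38, SE 0.42) and Cdk1 (-0.61, SE 0.42) the Case mice themselves spread widely, and differences of this size were not detectable. Mki67 was 0.222 to 0.495 FPKM (median 0.362) in Dapa and 0.133 to 0.694 (median 0.251) in Case, and the Dapa values lay within those of Case. Without Case replicate 3 its value was 0.25 and with all mice -0.01. Ccna2 (0.65, SE 0.34, q = 0.43), Nusap1 (0.55, SE 0.27, q = 0.40) and Foxm1 (0.51, SE 0.31, q = 0.49) were above 0 without a call (edgeR). E2f1 was at -0.14 (SE 0.24), Mcm2 at 0.07 (SE 0.14) and Rrm2 at 0.22 (SE 0.29).

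Between Dapa and Ctrl, which shares its Ctrl mice with the first comparison, 5 of 10 replication genes, Rrm1 and Ccnd1 were higher in the Dapa mice, and 5 of 18 mitosis genes tested were lower, a count that fell to 0 without Ctrl replicate 3, where the q of Mki67 and Kif20a was 0.0515 and 0.0586 (edgeR). Of the 42 genes 37 were tested, and 12 (32.4%) had a q under 0.05, as against 29.1% of all 14647 genes tested, so that the share was near the background. Of these 7 were higher in Dapa (18.9%, against 14.2% of all genes) and 5 lower (13.5%, against 14.9%). DEGs numbered 5 (13.5%, against 7.18% of all genes), Mcm5 and Uhrf1 higher and Ccnb2, Cenpf and Kif20a lower. Ccnb2 and Cenpf passed the filter through Ctrl, the group in which they were high, so this share is given no weight. Without adjustment 16 genes had a p under 0.05 (43.2%, against 41.1% of all genes), 8 higher (21.6%, against 20.7%) and 8 lower (21.6%, against 20.4%). A log2 fold change above 0 was found in 18 of the 37 (48.6%, against 51.4%). The median was -0.05 over the 37 genes, beside 0.02 over all genes.

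The 7 genes higher in Dapa were Rrm1 (log2 fold change 0.57, SE 0.10, q = 0.0021), Ccnd1 (0.63, SE 0.12, q = 0.00238), Mcm5 (1.03, SE 0.21, q = 0.00359), Mcm4 (0.75, SE 0.15, q = 0.00368), Uhrf1 (1.15, SE 0.28, q = 0.00923), Mcm2 (0.44, SE 0.12, q = 0.0194) and Gins2 (0.69, SE 0.22, q = 0.0338, edgeR), of which Gins2 lost its call in 6 of 20 other settings. Mcm2, which was 0.950, 0.865, 0.792, 1.10 and 0.858 FPKM in Ctrl, was 1.16 to 1.49 (median 1.33) in Dapa, and the groups did not overlap. Ccnd1 was 81.6 to 121 FPKM (median 93.5) in Dapa and Mcm5 was 1.38 to 2.35 (median 1.57), both without overlap with the Ctrl values above. In FPKM 7 of the 37 genes (18.9%) did not overlap, as against 14.5% of all genes. All 7 were higher in Dapa (9.79% of all genes), and 0 lower (4.74% of all genes). On the TMM scale Pcna was no longer among them (0.17, SE 0.08, q = 0.13, edgeR), and Kif20a then lay lower in every Dapa mouse than in any Ctrl mouse, while the shares of all genes were 6.08% higher and 8.28% lower.

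The 5 genes lower in Dapa all act in mitosis. Mki67 had 0.391, 0.557, 0.7095, 0.675 and 0.542 FPKM in Ctrl and 0.364 ± 0.0876 (SD, n = 6) in Dapa, where replicates 7 and 12 overlapped with Ctrl (log2 fold change -0.76, SE 0.21, q = 0.0171, edgeR). Top2a had 0.339, 0.483, 0.450, 0.413 and 0.337 FPKM in Ctrl and 0.117 to 0.429 (median 0.184) in Dapa, with Dapa replicate 12 alone within the Ctrl range (-0.96, SE 0.30, q = 0.0296, edgeR), and its call was lost in 7 of 20 other settings. Kif20a, a kinesin of the dividing cell's midzone, had 0.475 ± 0.181 FPKM in Ctrl and 0.206 ± 0.0928 in Dapa (-1.30, SE 0.36, q = 0.0184, edgeR), and Cdc23 on the opposite strand overlaps 29.3% of its exons. Cenpf of the kinetochore had 17 to 47 counts in Ctrl and 1 to 22 in Dapa (-1.69, SE 0.51, q = 0.0267, edgeR), and its call was lost in 5 of 19 other settings. Ccnb2 (cyclin B2) had 13, 22, 38, 23 and 17 counts in Ctrl and 0 to 15 in Dapa (-1.56, SE 0.52, q = 0.0383, edgeR), and its call was lost in 10 of 19 other settings. Cenpf and Ccnb2 did not pass the filter between Dapa and Case, and they passed it here through Ctrl, the group in which they were high, so that their being lower is no support for the other 3. Without Ctrl replicate 3, the Ctrl mouse with the highest mitosis genes, none of the 5 kept its call, and Stmn1 was called in their place. The log2 fold changes without it stayed below 0, with -1.06 for Kif20a (q = 0.0586) and -1.29 for Ccnb2 (q = 0.11), and the q of Mki67 was 0.0515 (edgeR). With all mice Stmn1 had -0.67 (SE 0.24, q = 0.0513, edgeR). Kif11 (-0.81, SE 0.37, q = 0.12), Prc1 (-0.91, SE 0.37, q = 0.076) and, on the higher side, Bub1b (0.80, SE 0.31, q = 0.068, called in 5 of 20 other settings) reached only an unadjusted p of 0.05 (edgeR), and Cdk1 (-0.40, SE 0.39), Rrm2 (0.04, SE 0.30), E2f1 (0.34, SE 0.27) and Foxm1 (0.26, SE 0.39) did not. None of the 5 was called between Case and Ctrl, and Dapa against Case, which tests that difference, gave no call for Mki67, Top2a or Kif20a, with Cenpf and Ccnb2 too low to be tested there.

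**Figure D4:**
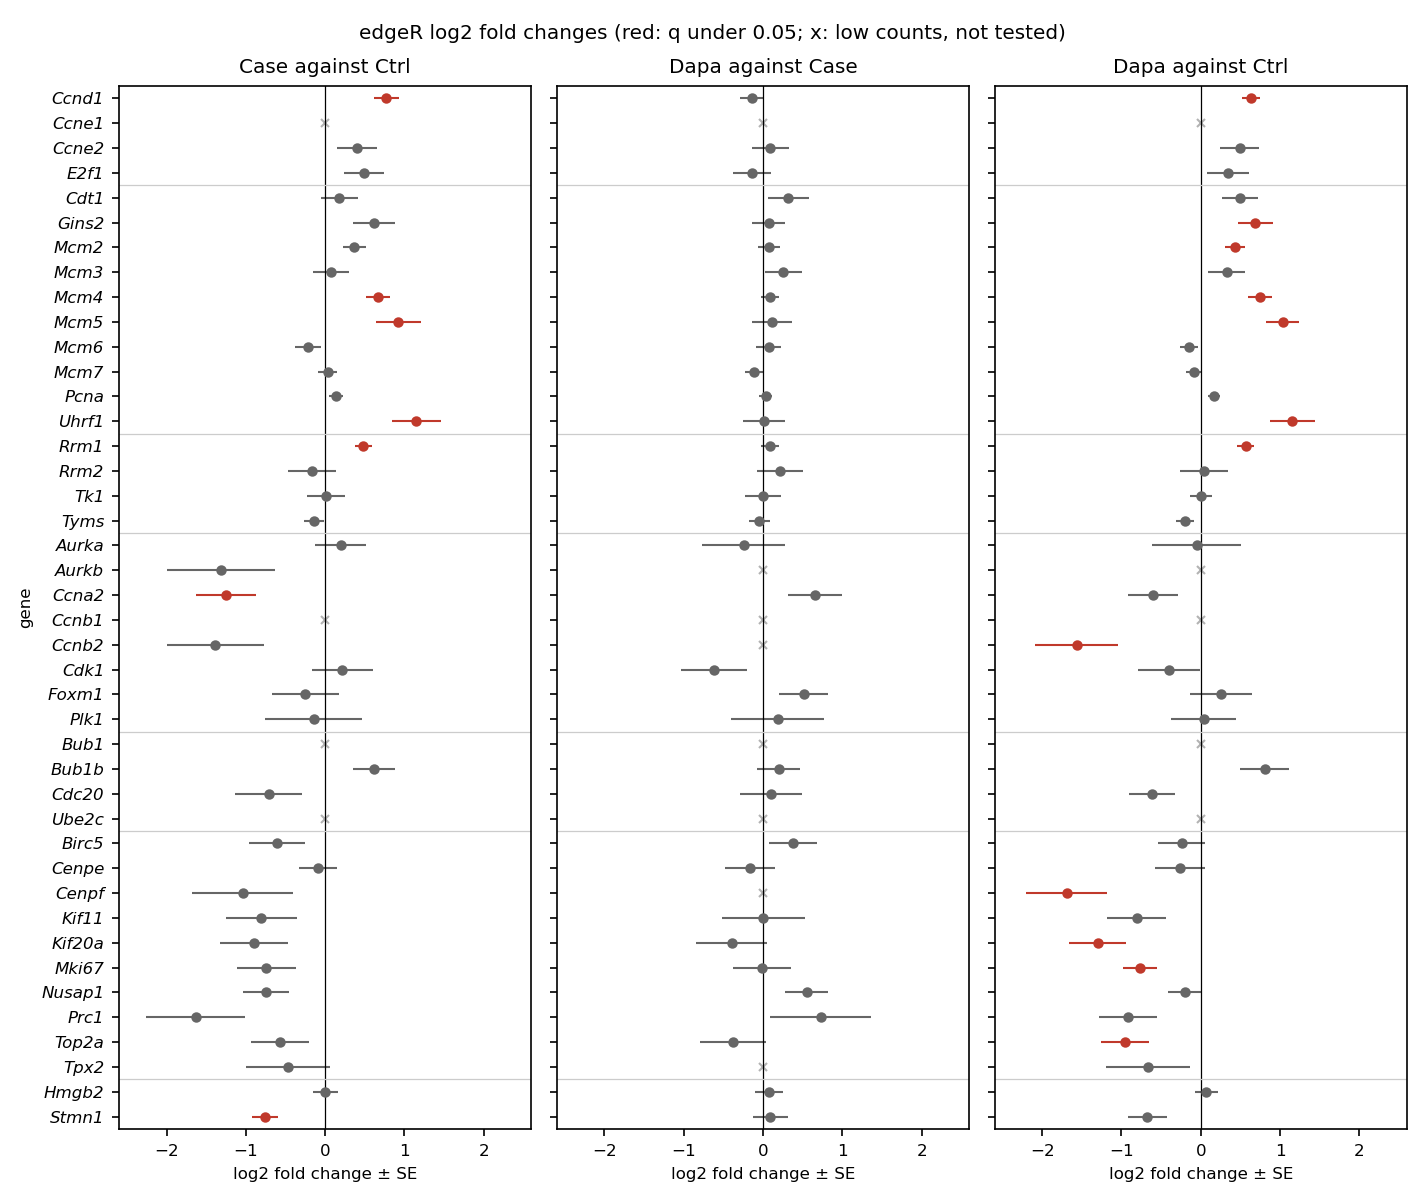
Log2 fold changes with their standard errors from edgeR for the 42 genes (rows, by role) in the 3 comparisons. Red points have a q under 0.05 (7, 0 and 12 genes), and crosses mark genes with too few counts to be tested.

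The other genes of the pathway gave a partly different picture. Of 42 other replication genes 38 were tested between Case and Ctrl, and 3 were higher (6.09% of all genes) and 0 lower (6.91%) in Case (median log2 fold change 0.33, beside 0.03 over all genes). These were Tipin of the replication fork (0.84, SE 0.21, q = 0.0196), the DNA ligase Lig1 (0.59, SE 0.17, q = 0.0348) and the polymerase subunit Pola2 (0.50, SE 0.15, q = 0.0475, edgeR). Between Dapa and Ctrl 11 of 38 were higher (14.2% of all genes) and 2 lower (14.9%), with a median of 0.36, led by Chaf1b, which places histones on new DNA (1.75, SE 0.24, q = 0.00054), Tipin (1.01, SE 0.17, q = 0.00145) and Brca2 (0.78, SE 0.15, q = 0.00251, edgeR). Other mitosis genes did not move one way. Of 62, 44 were tested between Case and Ctrl, with 2 higher, 1 lower and a median of 0.00. The kinesin Kif20b was lower (-2.06, SE 0.42, q = 0.00826), while the condensin subunit Ncapg2 (0.89, SE 0.21, q = 0.0171) and the phosphatase Cdc25b (0.64, SE 0.17, q = 0.0308, edgeR) were higher. Between Dapa and Ctrl 5 of 45 were higher and 6 lower, with a median of 0.01, led by Kif20b (-2.12, SE 0.37, q = 0.00155), Cks2 (-0.70, SE 0.14, q = 0.00357) and Kif23 (1.42, SE 0.32, q = 0.006, edgeR).

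Among 24 cell cycle inhibitors and p53 targets 23 were tested, of which 6 were higher and 0 lower in Case than in Ctrl, with a median of 0.47, where 6.09% of all genes were higher and 6.91% lower. They were led by Btg2, an antiproliferative gene (11.8 ± 2.20 FPKM in Case versus 5.67 ± 0.960 in Ctrl, log2 fold change 0.98, SE 0.13, q = 0.00076), Gadd45b of the stress response (1.19, SE 0.17, q = 0.0012) and the Cdk inhibitor Cdkn1c (0.90, SE 0.18, q = 0.00688, edgeR). Between Dapa and Ctrl 10 were higher and 1 lower (median 0.30, with 14.2% of all genes higher and 14.9% lower), again with Btg2 (1.21, SE 0.22, q = 0.00205), Cdkn1c (0.66, SE 0.13, q = 0.00252) and Gadd45b (1.76, SE 0.38, q = 0.00483, edgeR) at the head. Cdkn1a, the Cdk inhibitor p21, had a mean FPKM of 3.24 ± 1.35 in the 5 Ctrl mice, 4.97 ± 2.09 in the 6 Case mice and 8.45 ± 2.97 in the 6 Dapa mice (± SD). It passed between Dapa and Ctrl (1.28, SE 0.28, q = 0.00505) and not between Case and Ctrl (0.53, SE 0.28, q = 0.24) or Dapa and Case (0.75, SE 0.26, q = 0.27, edgeR). Of 21 other G1 regulators 19 were tested, and Cdk6 was lower in Case (-0.59, SE 0.16, q = 0.0338) and in Dapa (-0.25, SE 0.09, q = 0.0445), while Cdk2 was higher in Dapa (0.37, SE 0.12, q = 0.0316, edgeR). Between Dapa and Case 0 genes of these 4 lists passed, with 4, 2, 4 and 2 at an unadjusted p under 0.05 of the 38, 40, 23 and 19 tested, in the order in which they are given (edgeR), where 12.9% of all genes reached it.

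Markers of cells and of injury moved with the groups as well. All 6 erythroid markers that could be tested, of 7, were higher in Case than in Ctrl (summed level 22.7 to 76.0 FPKM in Ctrl, 65.7 to 450 in Case, 118 to 372 in Dapa), and so were 4 of the 9 tubular injury markers tested (142 to 211, 329 to 1539 and 328 to 781 FPKM). For these and the lists that follow, 6.09% of all genes were higher and 6.91% lower in Case than in Ctrl, and 14.2% and 14.9% in Dapa than in Ctrl. Of 10 proximal tubule markers 3 were lower in Case than in Ctrl and 7 were lower in Dapa than in Ctrl (2820 to 3172 FPKM in Ctrl, 1704 to 3158 in Case, 2044 to 2663 in Dapa), and the sums of Dapa and Ctrl did not overlap. Of 10 distal nephron and collecting duct markers 3 were higher in Case and 5 in Dapa, and the adrenal gene Hsd3b1 was higher in Dapa than in Ctrl (log2 fold change 4.42, SE 0.82, q = 0.00238) and in Case than in Ctrl (1.72, SE 0.50, q = 0.0404, edgeR). Of 6 fibroblast and pericyte markers 0 were called in Case (2 at an unadjusted p under 0.05, edgeR) and 3 were higher in Dapa (Pdgfra, Acta2 and Dcn). Of 6 B and plasma cell markers only 2 could be tested between Case and Ctrl, and they went opposite ways. Jchain of plasma cells was lower in Case (-1.57, SE 0.46, q = 0.0430, edgeR), and the other lay above 0 (0.26) without a call. Of 9 macrophage markers 0 were called in any comparison by edgeR, with 0 at an unadjusted p under 0.05 in each, and their sums were 26.3 to 45.4, 26.3 to 193.7 and 24.0 to 59.6 FPKM in Ctrl, Case and Dapa. T and NK cell markers were near the limit of detection, with 1 of 10 tested between Case and Ctrl, 3 tested between Dapa and Ctrl and sums of 0.722 to 6.00 FPKM over all mice. Of the 3 tested between Dapa and Ctrl, 2 lay above 0 and 1 below (-0.11), and only Trac, the T cell receptor alpha constant gene, was called. Trac had 0.268 ± 0.0751 FPKM in Ctrl and 0.915 ± 0.454 in Dapa (± SD). Such low genes could pass the filter through Dapa, so this call is given no weight. The part of these cells and of injury in the proliferation genes was not tested.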

How the data were processed

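Reads had been mapped by the authors with HISAT2 (genome mm10), and Stringtie gave the deposited read counts and FPKM values per gene and mouse. Whether counting used the strand is not given in the sources used here. Each gene's FPKM was its count over the library total, times a constant of that gene, to within 0.0158%, with no TMM factor in it. The table lists 22561 genes, and Sirt1, Tgfb1 and Bmp4 were not used because each takes up 2 lines. Groups came from the labels.

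The genes and lists were chosen with earlier results of these data known. The quasi-likelihood test of edgeR 4.0.16 (R 4.3.3) was run on the counts of the 2 groups compared, after filterByExpr and with TMM factors, and p-values of all genes tested were adjusted by Benjamini-Hochberg. A call had q under 0.05, and a DEG also a fold above 2 between mean FPKM, as in the study. The SE was the log2 fold change divided by the square root of the test's F. Named were 10 fixed genes, those past q or an unadjusted p of 0.05 (at most 10 each), the highest and lowest expressed, Cdkn1a and at most 3 called genes of each other list, and markers. Bub1, Ube2c, Mcm3, Mcm6, Mcm7, Tyms, Tk1, Hmgb2, Ccne1 and Ccne2 were named after their values were seen.

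Alternatives were DESeq2 1.42.0, scaling by median ratio or upper quartile, omission of the filter, a minimum of 10 counts per gene and sample, a joint fit of the 3 groups, limma 3.58.1 on log2(FPKM + 1) and log2(FPKM + 0.1), a term for the 7 libraries, the replicate block and each mouse left out. Tests were tested on simulated data. No 2 libraries of a group agreed within sampling noise (lowest chi-square per gene 14.2). Motif matches and figures were made in Python 3.11.15 with pandas 2.3.3 and matplotlib 3.10.9.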

Additional observations from a re-analysis of the deposited data

Results flagged for a closer look

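In 4 of 126 groups of 5 or 6 values of a gene, the highest mouse lay far from the rest by Dixon's criterion, which chance flags in about 1 in 20 groups. Rrm2 was 2.03 FPKM (119 counts) in Case replicate 5, with the next Case mouse at 1.17, and 2.47 FPKM (120 counts) in Dapa replicate 12, with the next at 1.37. Mcm5 was 2.35 FPKM (105 counts) in Dapa replicate 12, with the next at 1.71. Ccne2 was 0.436 FPKM (46 counts) in Dapa replicate 11, with the next at 0.287.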

How the results depend on the processing

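The 7 calls between Case and Ctrl (5 higher, 2 lower, 2 DEGs) became 4 with the term for the 7 libraries (3 higher, 1 lower, 0 DEGs), and the lower calls and DEGs became 1 each with no filter and with limma at either pseudocount. With the replicate block, which gives Case replicate 6 no partner, 1 call was left (Mcm4; 1 higher, 0 lower, 0 DEGs), and Foxm1 turned to 0.019, but the numbers name different mice and do not pair them (correlation of deviations from group means -0.09 to -0.034 in 5 pairs, 0 of 5 Ctrl mice closest to their own number). Between Dapa and Ctrl (12 calls, 5 of them lower, 5 DEGs), the lower calls became 2 with at least 10 counts in every sample, where genes with low counts are not tested (2 DEGs, median log2 fold change 0.14), and 2 with all 3 groups in 1 fit (Kif20a and Stmn1, so that 1 of the 5 mitosis genes kept its call). Higher calls rose from 7 to 9 in that fit, with Bub1b and Ccne1, and to 9 with limma, with Bub1b and Pcna. Between Dapa and Case 0 genes were called in every setting, and Mki67 (-0.01) turned to 0.014 and 0.13 with limma at pseudocounts of 1 and 0.1 and to 0.10 with the term for the 7 libraries. The causes were not tested.

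With each mouse left out, the calls between Case and Ctrl ranged from 4 to 7 (higher 3 to 5, lower 1 to 3, DEGs 0 to 3, median -0.15 to -0.01), those between Dapa and Case from 0 to 0 (median 0.00 to 0.11), and those between Dapa and Ctrl from 8 to 13 (higher 6 to 7, lower 1 to 6, DEGs 2 to 6, median -0.12 to -0.02). The lowest of the lower calls and DEGs between Dapa and Ctrl came without Ctrl replicate 3. Between Case and Ctrl, 4 calls were left without each of Ctrl replicates 2, 3 and 5 and Case replicates 4 and 6. Single genes without a call changed sign, namely Cdk1 (-0.15 to 0.34) and Foxm1 (-0.46 to 0.21) between Case and Ctrl, Mki67 (-0.18 to 0.25) and Rrm2 (-0.040 to 0.47) between Dapa and Case, and Rrm2 (-0.21 to 0.14) between Dapa and Ctrl. Between 4 and 8 of the 42 genes were not tested in a comparison.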
